A study of Mus musculus with 76 samples.

Results

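Genes that brake the cell cycle, and the p53 genes that act with them, were followed in lung tissue of smoke-exposed and control mice. The list holds 10 genes chosen by symbol: Cdkn1a, Cdkn1b, Cdkn1c, Cdkn2a, Cdkn2b, Cdkn2c, Cdkn2d, Trp53, Mdm2 and Trp73. Of these, 9 were measured among the 20710 genes tested in the whole series, and Trp53 was not analysed here. Where several array features carried 1 gene, the feature with the highest mean over 76 arrays stood for it. On GRCm38.p6, RefSeq places Cdkn1a at chr17:29090979-29100722, Cdkn1b at chr6:134920401-134925525, Cdkn1c at chr7:143458339-143461059, Cdkn2d at chr9:21288459-21291421 and Mdm2 at chr10:117688875-117710758. Chromosome 4 holds Cdkn2a (chr4:89274473-89294619) beside Cdkn2b (chr4:89306289-89311032), and farther on Cdkn2c (chr4:109660876-109666756) and Trp73 (chr4:154056249-154139875).

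Cells enter division when cyclins activate cyclin-dependent kinases (CDKs), which phosphorylate the retinoblastoma protein and free the E2F transcription factors. The CIP/KIP proteins, encoded by Cdkn1a (p21), Cdkn1b (p27) and Cdkn1c (p57), bind complexes of cyclin and CDK. The INK4 proteins, encoded by Cdkn2a (p16), Cdkn2b (p15), Cdkn2c (p18) and Cdkn2d (p19Ink4d), bind the cyclin D kinases alone. The transcription factor p53 activates Cdkn1a and Mdm2 after DNA damage, Mdm2 marks p53 for degradation, and Trp73 encodes the related factor p73. Cdkn1a and Cdkn2a are widely used to mark senescence, a lasting arrest of the cell cycle that is studied in lungs exposed to smoke.

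RNA came from alveolar septa (39 arrays) and lung vessels (37 arrays) microdissected from 40 mice, on single-colour arrays whose values are log2 signals. The 16 groups crossed smoke or control, Noxo1 knockout (KO, allele C57BL/6-Noxo1(tm1881_17.2Arte)) or wild type (WT), 8 or 3 months, and the vessel or septum tissue, and held 4 or 5 arrays each. Per the labels, smoke exposure began in week 12 and ran 5 days weekly, 6 hours daily, with particles at 140 mg/m3, while controls breathed no smoke. Noxo1 encodes the organizer subunit of the oxidase NOX1. The allele is a whole-body one as far as the labels say, the labels do not describe the deleted stretch, and the mice were kept 5 to a cage with no cage named, so cage and group cannot be told apart. Age at sampling is not given, and control mice were sampled at both times. Replicates were separate mice by their identifiers, except for 2 vessel arrays of mouse 25 (WT control, 3 months), which were averaged in comparisons within vessels and kept as 2 arrays, with the mouse as a block, between tissues.

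The number of arrays limits the precision, since array signals carry no counts. An array correlated with the others of its tissue at a median of 0.801 to 0.882 in vessels and 0.897 to 0.935 in septa, and genes had a median residual SD of 0.991 in vessels and 0.747 in septa. Noxo1 averaged 2.42 ± 0.67 in KO septa (SD, n = 20) and 3.72 ± 1.27 in WT septa (n = 19), a difference that did not pass adjustment in limma (-1.31 ± 0.32 (SE), p = 0.000166, adjusted p = 0.9996), near the background level of the arrays. In vessels its median was 2.90 in KO and 3.76 in WT (n = 18 each), with a difference of -0.84 ± 0.47 (adjusted p = 0.979). The highest KO vessel array, at 7.03, lay above the highest WT vessel value of 6.69, so these signals check the genotype labels only weakly. Xist exceeded the Y-linked genes, as in females, in 10 of 20 smoke septa and 4 of 19 control septa arrays, and in 9 of 18 smoke vessel and 3 of 19 control vessel arrays. In 2 of 35 mice with both tissues, mouse 7 (KO control, 8 months) and mouse 29 (WT control, 8 months), the tissues differed in this pattern. Whether arrays of these mice were exchanged, which would put a KO array in a WT group and a WT array in a KO group, was not tested. Leaving both mice out changed no call of a member.

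The background level was set at a log2 signal of 3.26, the 95th percentile of the means of 1322 odorant and vomeronasal receptor genes, which lung is not known to use. Cdkn1a, Cdkn1b, Cdkn2c, Cdkn2d and Mdm2 lay above it on all 76 arrays. Trp73 lay above it on 69 arrays, Cdkn1c on 68 and Cdkn2b on 61. Cdkn2a, whose products p16Ink4a and p19Arf act on the kinases and on Mdm2, exceeded it on 24 arrays. Its mean was above background in 1 of 8 septa groups and in 0 of 8 vessel groups, so no fold change is given for it. Both of its array features are annotated to the same RefSeq transcript, so they cannot set the 2 products apart. Which product that transcript encodes was not examined here.

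How well 1 feature stands for its gene differed between members. Cdkn1a had 12 features, and 9 others correlated with the feature used at 0.97 to 0.99 over the 76 arrays. Its 2 remaining features had means of 3.29 and 2.90 and correlated with the feature used at 0.22 and 0.016. Cdkn1c, Cdkn2c, Cdkn2d and Mdm2 had 1 feature each. The second feature of Cdkn1b was dimmer, with a mean of 5.57, and correlated with the feature used at 0.25. Cdkn2b and Trp73 had dimmer further features that correlated with the feature used at 0.06 for Cdkn2b and at 0.02 and 0.34 for Trp73, and these lay below the background level.

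Inhibitors of both families were lower in vessels than in septa. In limma, 5 of the 9 members were called and all 5 were lower in vessels, while 28.9% of all genes were called and 16.2% were lower in vessels. These 5 were Cdkn1a, Cdkn1b, Cdkn2b, Cdkn2c and Cdkn2d. The median difference over the members was -0.53 log2 units, against 0.02 over all genes. In bulk tissue, fewer cells of a type and less RNA per cell cannot be told apart.

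Cdkn1a, the p53-induced inhibitor, ranged over vessel arrays with a lowest value of 6.14, a median of 8.93 and a highest of 11.13, and over septa arrays with 8.44, 9.97 and 11.64. The vessel arrays reached far lower and the groups overlapped. Vessels averaged 9.03 ± 1.25 (SD, 37 arrays of 36 mice) and septa 9.90 ± 0.72 (39 arrays), a difference of -0.91 ± 0.20 (adjusted p = 0.000261), and vessels were lower in 28 of 35 mice with both tissues. Cdkn1b, an inhibitor of cyclin E and CDK2 complexes in resting cells, had a lowest value of 7.77, a median of 8.74 and a highest of 9.61 in vessels, against 7.68, 9.38 and 10.38 in septa. Its difference was -0.53 ± 0.11 (adjusted p = 5.21e-05), with vessels lower in 26 of 35 mice. With the second feature it was -0.33 with an adjusted p of 0.375.

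Cdkn2b, an INK4 gene induced by transforming growth factor beta, differed by the largest amount of the 9 members. Its vessel arrays ran between 1.03 and 8.68 with a median of 3.89, and its septa arrays between 3.11 and 7.22 with a median of 5.87. The widest spread was in vessels, where 2 of 8 group means lay below background. The difference was -1.72 ± 0.33 (adjusted p = 1.66e-05), and with the second feature, which lies below background, it was -0.57 with an adjusted p of 0.0908. Cdkn2c, an INK4 gene of late differentiation and quiescence, ran between 5.56 and 9.90 in vessels (median 8.42) and between 7.92 and 10.51 in septa (median 9.48). It differed by -1.13 ± 0.18 (adjusted p = 5.35e-07), and vessels were lower in 32 of 35 mice. Cdkn2d ran between 6.93 and 10.05 in vessels (median 8.61) and between 8.38 and 10.66 in septa (median 9.53). Its difference of -0.90 ± 0.14 had the lowest adjusted p of the members (1.58e-07), with vessels lower in 28 of 35 mice.

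The other 4 members were not called between the tissues. Cdkn1c differed by 0.15 ± 0.29, Mdm2 by -0.18 ± 0.14 and Trp73 by -0.22 ± 0.20, with adjusted p-values of at least 0.359 in limma. Cdkn2a averaged 2.62 in vessels and 2.88 in septa, both below background. The 95% interval for Mdm2, the p53 inhibitor, ran between -0.45 and 0.10 log2 units.

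**Figure D1:**
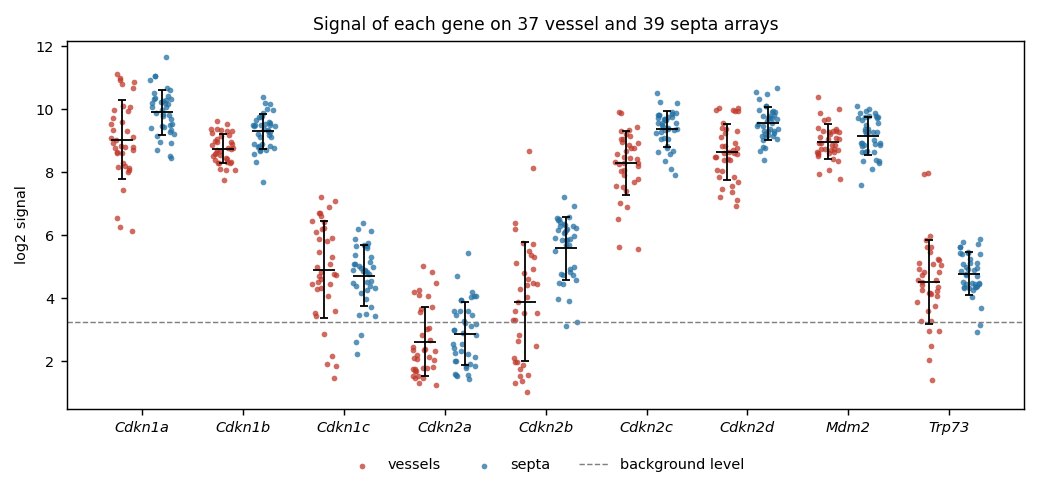
Log2 signal (y axis) of the 9 genes on 37 vessel arrays (red, left) and 39 septa arrays (blue, right), with the mean and SD in black and the background level of 3.26 as a dashed line. Cdkn1a, Cdkn1b, Cdkn2b, Cdkn2c and Cdkn2d lay lower in vessels, by 0.53 to 1.72 log2 units, and most Cdkn2a points lie under the dashed line.

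Marker genes of several cell types moved with these differences. All 8 smooth muscle markers were higher in vessels (median 5.12 log2 units). All 8 markers of type 1 pneumocytes (median -2.27), all 8 of type 2 pneumocytes (-1.30) and all 6 of neutrophils (-3.07) were lower in vessels. The mean level of the neutrophil markers ran between 5.61 and 11.78 on vessel arrays and between 8.78 and 13.18 on septa arrays. The mean level of the type 1 markers ran between 6.14 and 9.78 on vessel arrays and between 9.15 and 10.81 on septa arrays and all 8 were above background in vessels too. Markers of airway and heart muscle cells were higher in vessels as well, in 5 of 6 for ciliated cells (mean level 6.87 in vessels and 3.49 in septa), 3 of 4 for club cells (10.28 in vessels and 9.13 in septa) and 5 of 6 for the heart muscle of pulmonary veins (6.43 in vessels and 3.18 in septa). The part of these cells in the inhibitor differences was not tested.

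The promoters of 4 of the 5 inhibitors that were lower in vessels are shown because these genes moved together between tissues. Each is the 250 bases before a start site as RefSeq annotates it on GRCm38.p6, read 5′ to 3′ on the gene's strand. Capitals mark the GC box GGGCGG, the CCAAT box and the p53 decamer, searched on both strands. Cdkn1a lies on the plus strand at chr17:29090729-29090978, before the first of its 2 listed starts, Cdkn1b on the plus strand at chr6:134920151-134920400, Cdkn2b on the minus strand at chr4:89311033-89311282, and Cdkn2c on the minus strand at chr4:109666757-109667006, before the first of its 2 listed starts.
Cdkn1a: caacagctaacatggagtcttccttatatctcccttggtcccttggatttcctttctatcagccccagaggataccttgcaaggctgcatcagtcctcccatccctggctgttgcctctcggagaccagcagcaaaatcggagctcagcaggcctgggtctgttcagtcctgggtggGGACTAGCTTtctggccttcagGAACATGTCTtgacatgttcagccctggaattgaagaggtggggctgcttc
Cdkn1b: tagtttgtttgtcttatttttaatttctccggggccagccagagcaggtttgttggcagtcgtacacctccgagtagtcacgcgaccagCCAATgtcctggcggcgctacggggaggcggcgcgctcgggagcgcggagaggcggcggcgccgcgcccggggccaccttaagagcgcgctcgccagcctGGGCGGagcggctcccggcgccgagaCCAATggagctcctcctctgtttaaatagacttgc
Cdkn2b: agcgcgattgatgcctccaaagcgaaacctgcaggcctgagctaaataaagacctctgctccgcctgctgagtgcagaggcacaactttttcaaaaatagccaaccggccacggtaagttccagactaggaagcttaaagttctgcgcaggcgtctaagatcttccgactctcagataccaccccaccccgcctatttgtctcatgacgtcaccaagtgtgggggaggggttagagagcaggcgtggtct
Cdkn2c: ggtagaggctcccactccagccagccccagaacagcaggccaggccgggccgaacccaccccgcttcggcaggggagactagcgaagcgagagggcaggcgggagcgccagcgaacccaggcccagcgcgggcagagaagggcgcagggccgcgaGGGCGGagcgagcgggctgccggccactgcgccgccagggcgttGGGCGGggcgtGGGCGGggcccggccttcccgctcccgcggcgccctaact
The Cdkn1a window held 2 p53 decamers, a motif found in 7.13% of 32851 promoters of the same length. Cdkn1b held 1 GC box and 2 CCAAT boxes, and Cdkn2c held 3 GC boxes. GC boxes occur in 32.7% and CCAAT boxes in 33.8% of all these promoters. Cdkn2b held none of the letters searched, which also included the TATA box TATAAA (12.4% of promoters), the E2F letters TTTGGCGC (0.417%) and TTTCCCGC (0.895%) and the forkhead letters TGTTTAC (3.17%). The Cdkn2d window overlaps the annotated gene and is not printed, and it held 3 GC boxes, 1 CCAAT box and 1 p53 decamer. The window at the second Cdkn1a start held 2 GC boxes and 0 p53 decamers, and that at the second Cdkn2c start held none of the letters searched. Which of the 2 Cdkn1a starts gives the transcript that the feature used reports was not examined, so the printed window may not be its promoter. These matches describe the sequence and are not evidence of binding.

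Over time, Cdkn1b rose in septa. At 8 months against 3 months, averaged over both genotypes and exposures, 1 of 9 members was called in septa, where 3.5% of all genes were called and 2.23% were higher at 8 months. In vessels 0 of 9 members were called by limma, where 1.27% of all genes were called, and 2 of the 9 had an unadjusted p under 0.05 (13.9% of all genes). The median over the members was 0.07 in septa and -0.04 in vessels, against 0.02 over all genes in each tissue.

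Cdkn1b in septa had a lowest value of 8.77, a median of 9.52 and a highest of 10.38 at 8 months, against 7.68, 8.90 and 9.76 at 3 months. The later arrays sat higher and the ranges overlapped. It averaged 9.59 ± 0.43 at 8 months (SD, n = 20) and 8.99 ± 0.52 at 3 months (n = 19), a difference of 0.60 ± 0.15 and a fold of 1.51 (adjusted p = 0.018). The call was lost with the mean of both features (0.42, adjusted p = 0.277) and with the second feature (0.25, adjusted p = 0.778). In vessels it averaged 8.99 ± 0.41 at 8 months and 8.50 ± 0.40 at 3 months (n = 18 each), a difference of 0.48 ± 0.16 that did not pass (adjusted p = 0.142). The difference between the tissues in this change was -0.13 ± 0.21 (adjusted p = 0.908, 95% interval -0.55 to 0.30).

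Each of the 8 combinations of genotype, exposure and tissue had a higher Cdkn1b mean at 8 months, by 0.06 to 1.01 log2 units, a pattern met by 3.24% of all genes. WT control septa had 9.34, 9.50, 9.88, 9.96 and 10.38 at 8 months, against 8.71, 8.82, 9.18 and 9.49 at 3 months. These groups overlapped in 1 pair of values. WT smoke vessels had 8.86, 8.96, 9.38 and 9.61 at 8 months, against 7.77, 8.06, 8.29, 8.29 and 8.57 at 3 months, with no overlap. Groups did not overlap for 2.93% of all genes in that comparison, and the difference of 1.01 ± 0.33 did not pass (adjusted p = 0.287, with 0.0338% of genes called). WT smoke septa differed by 0.75 ± 0.30 (adjusted p = 0.388, with 0.0773% of genes called) and KO control septa by 0.55 ± 0.30 (adjusted p = 0.746).

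Cdkn1c, an imprinted inhibitor of the same family, averaged 5.18 ± 0.68 in septa at 8 months (n = 20) and 4.23 ± 1.01 at 3 months (n = 19). The difference of 0.90 ± 0.28 had an adjusted p of 0.0597, the next lowest of the 9 members after Cdkn1b. In 3 of 9 alternatives 2 members were called over time in septa in place of 1. KO smoke septa had 4.99, 5.04, 5.15, 5.66 and 6.14 at 8 months, against 2.25, 2.83, 3.51, 3.72 and 4.27 at 3 months. The groups did not overlap, as for 1.6% of all genes in that comparison, and 2 of the 3-month values lay under the background level. The difference was 2.08 ± 0.55 in limma (adjusted p = 0.215), and 0 genes were called there. KO control septa averaged 5.25 ± 0.88 at 8 months and 4.65 ± 0.24 at 3 months (n = 5 each), and WT control septa 5.19 ± 0.50 (n = 5) and 5.12 ± 0.78 (n = 4). In vessels the difference was 0.19 ± 0.53 (adjusted p = 0.915).

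**Figure D2:**
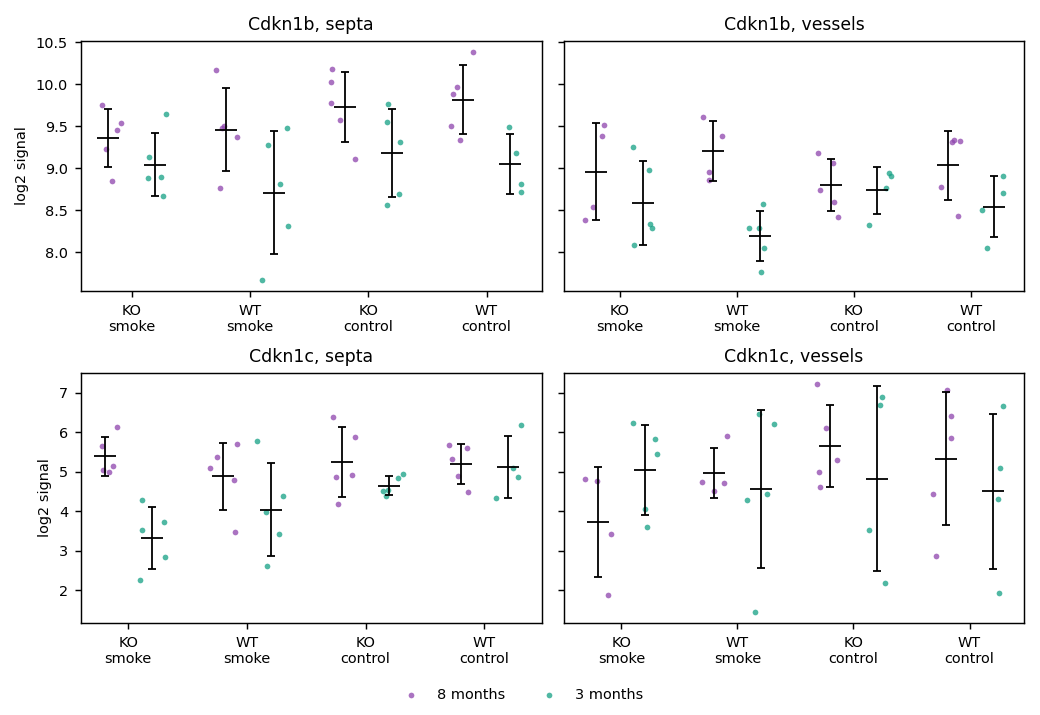
Log2 signal (y axis) of Cdkn1b and Cdkn1c in septa and vessels for the 4 combinations of genotype and exposure (x axis), at 8 months (purple, left) and 3 months (green, right), 1 point per mouse with mean and SD. Cdkn1b means are higher at 8 months in all 8 combinations, and Cdkn1c at 3 months is lowest in KO smoke septa, at a mean of 3.32.

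Among the INK4 genes, none was called over time. Cdkn2b averaged 3.21 ± 1.62 in vessels at 8 months and 4.54 ± 1.95 at 3 months (n = 18 each), a difference of -1.25 ± 0.59 (adjusted p = 0.331). Its second feature gave 0.049. KO control vessels had 1.03, 1.30, 1.55, 1.88 and 5.30 at 8 months, against 3.52, 4.03, 4.46 and 4.79 at 3 months, so all but 1 of the later arrays lay under every earlier one and under the background level. That difference was -1.99 ± 1.18 (adjusted p = 0.684). KO smoke vessels had 1.98, 1.99, 3.61 and 3.89 at 8 months, against 2.49, 2.84, 4.61, 5.74 and 8.68 at 3 months, which overlapped (adjusted p = 0.815). Cdkn2d in WT control vessels had 9.26, 9.29, 9.36, 9.39 and 9.96 at 8 months, against replicate values between 7.86 and 8.77 at 3 months, with no overlap (2.48% of all genes), and a difference of 1.13 ± 0.47 (adjusted p = 0.857). Cdkn2a, whose rise is widely used as a sign of aged tissue, averaged 2.97 at 8 months and 2.78 at 3 months in septa, both below background. In WT smoke septa it was lower at 8 months, at 2.40 ± 0.95, than at 3 months, at 3.72 ± 0.45 (n = 5 each, adjusted p = 0.478).

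Trp73, the p53 relative, was higher at 8 months in WT smoke vessels and lower in KO vessels, without a call in limma. WT smoke vessels had 5.04, 5.64, 7.93 and 7.98 at 8 months, against 2.03, 4.18, 4.41, 4.57 and 5.10 at 3 months. The groups overlapped in 1 pair of values, and the difference was 2.59 ± 0.75 (adjusted p = 0.22). In 1 fit over all 76 arrays with the mouse as a block, the same difference passed, with an SE of 0.60 (adjusted p = 0.0174). That fit shares 1 estimate of the spread over both tissues. The residual SD of Trp73 was 1.12 in vessels and 0.76 in septa. Trp73 gave 0.37 with its next brightest feature (adjusted p = 0.967) and 3.25 with the sex pattern as a covariate (adjusted p = 0.314), where the female pattern was on 3 of 4 arrays at 8 months and 0 of 5 at 3 months. In KO smoke vessels it was lower at 8 months, with 3.27, 3.76, 3.89 and 4.25 against 4.57, 4.92, 5.24, 5.47 and 5.64 at 3 months, without overlap (2.2% of all genes) and with a difference of -1.38 ± 0.75 (adjusted p = 0.804). KO smoke septa had 2.93, 3.15, 4.38, 4.48 and 4.86 at 8 months, against 4.91, 4.97, 5.41, 5.73 and 5.80 at 3 months. These groups did not overlap either (1.6% of all genes), and the difference was -1.40 ± 0.48 (adjusted p = 0.422). Whether the genotypes differed in this change over time was not tested. Mdm2, which binds p53, differed by -0.27 ± 0.19 in septa and -0.28 ± 0.20 in vessels, with adjusted p-values of 0.524 and 0.579.

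Marker genes of other cells moved with time as well. In septa 4 of 6 neutrophil markers and 2 of 8 alveolar macrophage markers were higher at 8 months. The mean neutrophil marker level on septa arrays ran between 11.08 and 13.18 at 8 months and between 8.78 and 12.39 at 3 months, and on vessel arrays between 7.80 and 11.78 at 8 months and between 5.61 and 11.20 at 3 months. The mean macrophage marker level on septa arrays ran between 5.82 and 9.89 at 8 months and between 4.90 and 8.12 at 3 months. Other lists had lower means in septa at 8 months. Erythroid markers averaged 8.35 at 8 months and 9.20 at 3 months, and smooth muscle markers 6.31 and 6.70. The female pattern was seen on 8 of 20 septa arrays at 8 months and 6 of 19 at 3 months. The part of these cells in the Cdkn1b result was not tested, while with the sex pattern as a covariate its difference was 0.60 (adjusted p = 0.0191).

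Smoke gave no call in any member. Averaged over genotypes and times, 0 of 9 members passed limma in septa and 0 of 9 in vessels, as did 0% of all genes in each tissue. An unadjusted p under 0.05 was reached by 1 member in septa (7.7% of all genes) and 2 in vessels (5% of all genes). The median over the members was -0.19 in septa and -0.07 in vessels, against -0.03 and -0.01 over all genes. In the 8 single comparisons of smoke, 0 members passed, as did 0 to 1 genes of the table (at most 0.00483%). In septa an unadjusted p under 0.05 was reached by 1 member in WT and 1 in KO at 3 months (5.09% and 3.54% of all genes) and by 0 in WT and 0 in KO at 8 months (5.79% and 6.55%). In vessels it was reached by 0 members in WT and 1 in KO at 3 months (6.12% and 6.2%), and by 3 in WT and 1 in KO at 8 months (2.94% and 4.3%). The results of Trp73 and Cdkn2d in WT vessels at 8 months were known when the members were chosen. The count there is therefore no independent result.

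Cdkn1a, the damage-induced inhibitor, was not higher with smoke on average. It averaged 8.66 ± 1.16 in smoke vessels and 9.38 ± 1.30 in control vessels (n = 18 each), a difference of -0.72 ± 0.35 (adjusted p = 0.977). In WT vessels the sign differed between the times. At 8 months KO smoke vessels had 6.25, 8.63, 8.81 and 8.93, against 8.60, 10.06, 10.09, 10.94 and 11.00 in KO control vessels, a difference of -1.98 ± 0.70 (adjusted p = 0.9995). Only the lowest control array lay within the smoke range. WT smoke vessels at 8 months had 6.14, 8.14, 8.21 and 9.07, against 7.44, 9.12, 9.31, 10.87 and 11.13 in WT control vessels, where the groups overlapped. At 3 months WT smoke vessels had 8.61, 8.79, 9.70, 9.97 and 10.66, against 6.56, 8.00, 8.78, 9.04 and 9.60 on WT control vessel arrays, a difference of 1.39 ± 0.70 (adjusted p = 0.822). Averaged over both genotypes, the smoke by time difference in vessels was -2.22 ± 0.70 (adjusted p = 0.909), and it was not tested in WT vessels alone. In septa the mean difference was -0.19 ± 0.21 (95% interval -0.62 to 0.24).

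Cdkn1c was lower with smoke in septa, at 4.41 ± 1.14 in smoke septa (n = 20) and 5.05 ± 0.64 in control septa (n = 19), without passing adjustment (-0.64 ± 0.28, adjusted p = 0.585). KO smoke septa at 3 months had 2.25, 2.83, 3.51, 3.72 and 4.27, against 4.38, 4.52, 4.54, 4.84 and 4.95 in KO control septa. These groups did not overlap, as for 0.7% of all genes, and differed by -1.33 ± 0.55 (adjusted p = 0.999). WT septa at 3 months differed by -1.08 ± 0.58 (adjusted p = 0.987). KO vessels at 8 months differed by -1.93 ± 1.05 (adjusted p = 0.9995). KO septa at 8 months differed by 0.15 ± 0.55 and KO vessels at 3 months by 0.21 ± 1.05, and the smoke mean was lower in 5 of the 8 combinations. Cdkn1b averaged 9.14 ± 0.56 in smoke septa and 9.46 ± 0.52 in control septa, a difference of -0.30 ± 0.15 (adjusted p = 0.653).

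Cdkn2d had the lowest unadjusted p of the members for smoke, in vessels. It averaged 8.19 ± 0.80 in smoke vessels and 9.14 ± 0.68 in control vessels (n = 18 each), a difference of -0.92 ± 0.23 (p = 0.000388, adjusted p = 0.922). WT smoke vessels at 8 months had 6.93, 7.20, 8.38 and 8.42, against 9.26, 9.29, 9.36, 9.39 and 9.96 in WT control vessels. All smoke arrays lay below all control arrays, as for 1.37% of all genes, and the difference was -1.72 ± 0.47 (adjusted p = 1). KO smoke vessels at 3 months had 7.38, 7.55, 7.67, 8.60 and 8.71, against 8.48, 8.65, 10.04 and 10.05 in KO control vessels, an overlapping pair of groups that differed by -1.32 ± 0.47 (adjusted p = 0.641). At 3 months WT smoke vessels averaged 8.36 ± 0.73 (n = 5) and WT control vessels 8.32 ± 0.42 (n = 4). In septa Cdkn2d differed by -0.24 ± 0.16 on average, with -0.60 ± 0.31 in KO septa at 8 months (adjusted p = 0.78), -0.42 ± 0.31 in WT septa at 8 months (adjusted p = 0.894), -0.39 ± 0.31 in KO septa at 3 months (adjusted p = 0.999) and 0.44 ± 0.33 in WT septa at 3 months (adjusted p = 0.997). Over the 8 combinations of genotype, time and tissue its smoke mean was lower in 6.

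The other INK4 genes had no common sign. Cdkn2c was lower with smoke in WT septa at 3 months, where it differed by -0.80 ± 0.37 (adjusted p = 0.957), and in WT vessels at 3 months, by -1.10 ± 0.66 (adjusted p = 0.868). It was higher in KO vessels at 3 months, by 0.85 ± 0.66 (adjusted p = 0.879), or by 0.14 without KO control replicate 4 (5.56), and its smoke mean was lower in 4 of the 8 combinations. Cdkn2b differed by -0.57 ± 0.31 in septa (adjusted p = 0.676) and 0.79 ± 0.59 in vessels (adjusted p = 0.986). Cdkn2a, the senescence marker, averaged 2.88 in both smoke and control septa, and 2.60 in smoke vessels and 2.69 in control vessels, all below background.

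Trp73, which can induce Cdkn1a as p53 does, had 5.04, 5.64, 7.93 and 7.98 in WT smoke vessels at 8 months, against 3.29, 3.58, 4.07, 4.12 and 4.17 in WT control vessels. The groups did not overlap (1.37% of all genes), and the control values lay between background and 1 log2 unit above it. The difference of 2.80 ± 0.75 had a p of 0.000652 and an adjusted p of 1. The 2 other Trp73 features are dimmer, and the next brightest gave -1.15 in that comparison. KO vessels at 8 months had 3.27, 3.76, 3.89 and 4.25 with smoke and 2.49, 2.95, 2.97, 4.35 and 5.22 in controls, which overlapped. Averaged over both times, the test of smoke by genotype in vessels gave -1.58 ± 0.75 for KO minus WT (adjusted p = 0.998). It was not tested at 8 months alone. In KO septa at 8 months Trp73 differed by -0.90 ± 0.48 (adjusted p = 0.804). Mdm2, a p53 target as well as its inhibitor, differed by 0.24 ± 0.19 in septa (95% interval -0.14 to 0.62) and -0.09 ± 0.20 in vessels (-0.51 to 0.32).

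**Figure D3:**
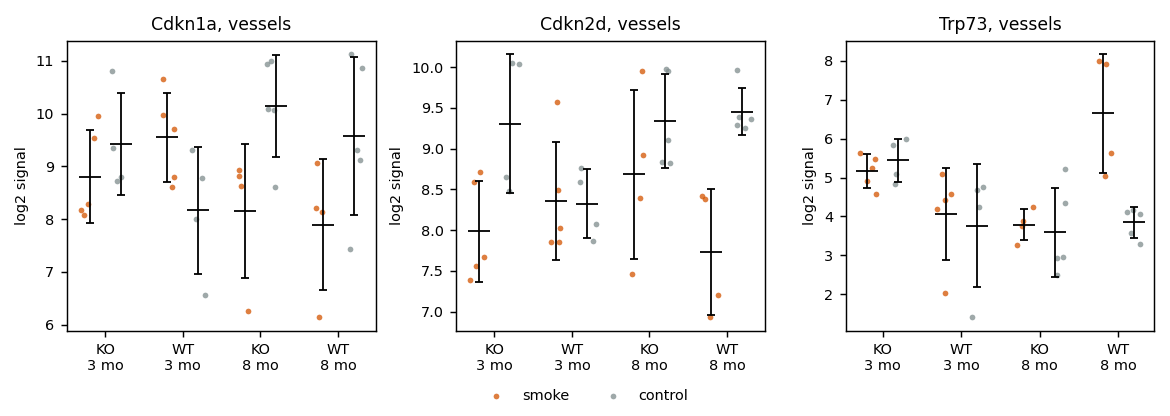
Log2 signal (y axis) of Cdkn1a, Cdkn2d and Trp73 in vessels with smoke (orange, left) and in controls (grey, right) for both genotypes at 3 and 8 months (x axis), 1 point per mouse with mean and SD. In WT vessels at 8 months the smoke and control points of Cdkn2d and Trp73 do not overlap, and no difference shown passed adjustment. The Cdkn2d and Trp73 results there were known when the members were chosen.

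Sex pattern and blood markers moved with some smoke comparisons. In WT vessels at 8 months the female pattern was on 3 of 4 smoke and 0 of 5 control arrays, and 5 of 5 erythroid markers were higher with smoke by a median of 2.14 without any call. Their mean level ran between 7.29 and 9.65 on these smoke arrays and between 3.08 and 7.58 on the control arrays. With the sex pattern as a covariate Trp73 differed by 3.46 (adjusted p = 0.776) and Cdkn2d by -1.85 (adjusted p = 1). In KO septa at 8 months the female pattern was on 4 of 5 smoke and 0 of 5 control arrays. In KO vessels at 8 months it was on 3 of 4 smoke and 1 of 5 control arrays. With this covariate Cdkn1a differed by -2.53 in those KO vessels (adjusted p = 0.682). In those KO septa Trp73 differed by -0.93 (adjusted p = 0.813) and Cdkn2d by -0.63 (adjusted p = 0.789). Over all vessels, smoke means of the 8 smooth muscle markers were below control means in every case, by a median of -0.35, and 0 of the 8 were called. The part of erythroid and muscle cells in these values was not tested.

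**Figure D4:**
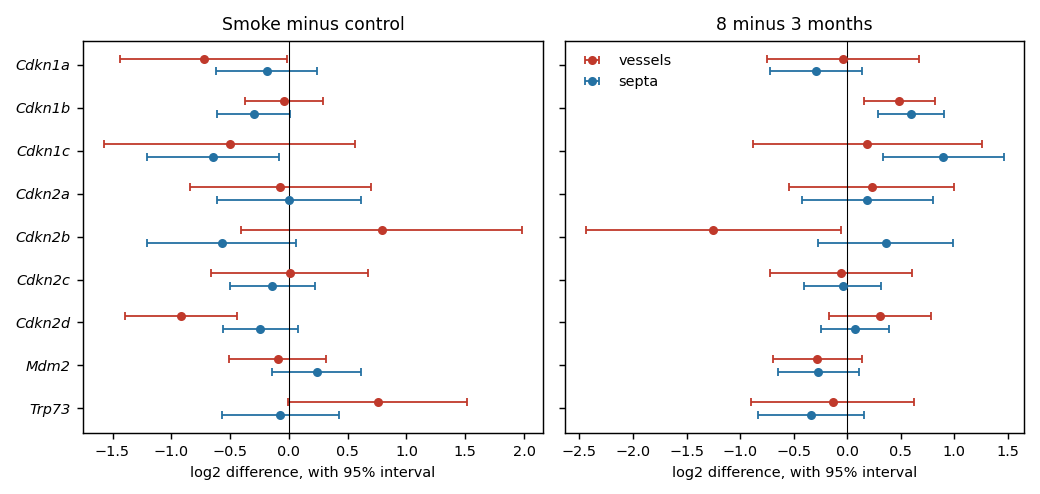
Log2 difference (x axis) of smoke minus control (left panel) and 8 minus 3 months (right panel) for the 9 genes, averaged over the other factors, in vessels (red) and septa (blue), with 95% intervals. Cdkn1b over time in septa, at 0.60, is the only difference that passed adjustment.

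Neither the genotype nor an interaction gave a call in any member. For KO against WT, 0 of 9 members and 0% of all genes passed limma in either tissue, and 0 of 9 members had an unadjusted p under 0.05 (3.98% of all genes in septa and 4.86% in vessels). The lowest p in septa belonged to Cdkn2b, at 5.40 ± 0.99 in KO (n = 20) and 5.77 ± 0.99 in WT (n = 19), and to Mdm2, at 9.25 ± 0.58 in KO and 9.06 ± 0.62 in WT. In vessels they belonged to Cdkn2d, with a difference of 0.36 ± 0.23, and Cdkn2a, at 2.45 in KO and 2.84 in WT, both below background. The mean change with smoke differed between vessels and septa by 1.34 ± 0.65 for Cdkn2b (adjusted p = 0.808) and -0.65 ± 0.28 for Cdkn2d (adjusted p = 0.769), where 0.00966% of all genes were called. The mean change over time differed by -1.63 ± 0.65 for Cdkn2b (adjusted p = 0.448), where 0.0338% were called. Smoke by time had an unadjusted p under 0.05 for 1 member in septa (5.95% of all genes) and 1 in vessels (5.02%), and smoke by genotype for 0 in septa (3.8%) and 2 in vessels (4.38%). Smoke by time in septa gave 1.13 ± 0.55 for Cdkn1c (adjusted p = 0.838), and smoke by genotype in vessels gave 1.36 ± 0.66 for Cdkn2c (adjusted p = 0.998).

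Partners of the inhibitors moved over time in few cases. Of 19 measured CDKs, cyclins and retinoblastoma family genes, Rb1 rose and Ccnd2 fell in septa at 8 months. Rb1, the retinoblastoma protein that the kinases inactivate, averaged 9.96 at 8 months and 9.14 at 3 months (0.82 ± 0.19, adjusted p = 0.00623). Ccnd2, a D-type cyclin whose kinase the INK4 proteins inhibit, averaged 6.67 at 8 months and 7.66 at 3 months (-0.98 ± 0.28, adjusted p = 0.0341). In vessels Rb1 rose by 1.47 ± 0.36 (adjusted p = 0.0308) and was the 1 gene of the 19 called. The median over the 19 genes was -0.06 in septa and -0.01 in vessels. None of 16 mitotic genes was called over time in either tissue, the lowest p in septa belonging to Cdc20, a mitotic activator (-1.22, adjusted p = 0.0571).

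Targets of p53 did not share a direction over time in septa, where 1 of 19 rose (2.23% of all genes) and 2 fell (1.27% of all genes). Fas, a death receptor, rose by 0.73 (adjusted p = 0.0205). Phlda3, an inhibitor of AKT signalling, fell by 0.79 on the log2 scale (adjusted p = 0.0102), and the nuclease gene Aen fell by 0.71 (adjusted p = 0.0148). In vessels Fas rose by 1.04 (adjusted p = 0.0184) and Ddit4, an inhibitor of mTOR signalling, by 1.26 (adjusted p = 0.0275), and 0 of 19 fell. Of 15 regulators of p53, the kinase gene Hipk2 fell in septa, by 0.71 (adjusted p = 0.0374), and 0 were called in vessels. Atm, a DNA damage kinase, had the lowest p there (3.74 at 8 months and 2.35 at 3 months, adjusted p = 0.0676). Its 3-month mean lay below background. Of 18 genes of the senescence secretory list, Igfbp5 (1.23, adjusted p = 0.00068) and the neutrophil chemokine Cxcl2 (1.79, adjusted p = 0.0172) rose in septa. In vessels Vegfa (0.86, adjusted p = 0.00906) and Lmnb1 (1.12, adjusted p = 0.0277) rose, where 1.02% of all genes rose. Lmnb1, on this list though its product is not secreted, encodes lamin B1, whose loss rather than gain is known from senescent cells.

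With smoke, 0 genes of each of these lists were called in either tissue. An unadjusted p under 0.05 was reached by 4 of 19 p53 targets in septa (7.7% of all genes) and 0 of 19 in vessels (5% of all genes), with list medians of -0.07 and -0.20. Rrm2b, a ribonucleotide reductase subunit gene that p53 induces, had the lowest p of that list in septa (-0.51 ± 0.21, adjusted p = 0.575), and Perp had it in vessels (-0.72 ± 0.36, adjusted p = 0.977). The senescence secretory list had medians of -0.06 in septa and 0.17 in vessels. Its lowest p belonged to the cytokine gene Il1b in septa (-0.55 ± 0.26, adjusted p = 0.625) and to the chemokine gene Cxcl10 in vessels (1.18 ± 0.52, adjusted p = 0.977). Of the 19 CDK and retinoblastoma genes 0 in septa and 1 in vessels had an unadjusted p under 0.05.

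Between the tissues, 7 of 19 p53 targets were lower and 1 higher in vessels, against 16.2% of all genes lower and 12.7% higher. Perp, an adhesion gene of epithelia, was higher in vessels (2.45 ± 0.25), while Pmaip1, the apoptosis gene Noxa (-2.12 ± 0.25), and Plk2, a stress-induced kinase gene (-1.05 ± 0.13), were lower. Of the CDK and retinoblastoma list, 0 of 19 were higher and 3 lower in vessels: E2f2 (-2.09 ± 0.32), Rb1 (-0.93 ± 0.20) and Rbl1 (-0.77 ± 0.30). Of 16 mitotic genes, Bub1b alone was called (-0.70), at means below background in both tissues.

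Across the 16 group means, 12093 other genes above background were compared with each member that lay above it. Cebpd (r = 0.959) and Dazap2 (0.958) were most like Cdkn1b, and over the 76 single arrays these correlations were 0.779 and 0.718. The closest to Cdkn1a were Ebi3 (0.895) and Pakap (0.888), to Cdkn2c Akap5 and Abhd17c (both 0.940), and to Cdkn2d Nrros (0.897) and Irgm1 (0.890). Cdkn2b was closest to Elp5 (0.922) and Wdr34 (0.916), Cdkn1c to Ints10 (0.833) and Gne (0.831), Mdm2 to Slc8b1 (0.844) and Med1 (0.840), and Trp73 to Cpeb4 (0.763) and Capn3 (0.759). Group means share arrays and the gap between tissues, so these values are descriptions. Among the members themselves, with group means removed, the highest correlation over the 39 septa arrays was between Cdkn1b and Cdkn2c (0.616), and over the 37 vessel arrays the strongest was between Cdkn1a and Mdm2 (-0.448), both computed on arrays of 1 normalization.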

How the data were processed

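RNA of microdissected lung septa and vessels was amplified, labelled with Cy5 and hybridised to single-colour arrays, per the labels' protocols. The deposited values are log2 signals on a common scale: the column medians lie between 3.19 and 3.192, and the steps the authors took to reach it are not given in the sources used here. Limma is named in the submitters' processing notes, and its version and settings are not given in the sources used here. Of 62976 features, 31465 carried 1 gene symbol in the platform annotation and 31511 none. Accessions matched RefSeq for 29050 of them, which updated 2933 symbols, and 671 features with an empty cell were left out, leaving 20710 genes. The submitters left out 4 arrays without signal.

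No further normalization was applied. Each tissue was fitted with 8 group means in limma 3.58.1 (R 4.3.3, eBayes with a trend), and p-values were adjusted over all 20710 genes by Benjamini-Hochberg with a threshold of 0.05. Vessels were compared with septa in 1 fit over 76 arrays with the mouse as a random block (correlation 0.0262). The 2 vessel arrays of mouse 25 were averaged, giving 36 vessel replicates. Intervals are 95% and differences are given with their SE. The fits within each tissue were tested on simulated data for the mean smoke comparison only. The comparisons of time, genotype and tissue were not simulated.

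The members and lists were chosen with earlier results of these data known, among them Trp73 and Cdkn2d in WT vessels at 8 months. In each comparison the members past adjustment were named, or the 2 with the lowest p where none passed, and further member values were chosen after they were seen. Of each list, up to 4 genes past adjustment were named, or else the 1 with the lowest p. Arrays with the same replicate number in other groups deviated together by a mean correlation of 0.0181 (6 of 255 pairs over 0.1). For other replicate numbers it was -0.0045 (11 of 1008 pairs over 0.1). Arrays of the same mouse in the other tissue reached only 0.0298, so this measure cannot decide whether the numbers pair arrays. The mouse pairs the tissues by label. Alternatives were a low filter, quantile normalization, the mean of all features, array weights, no trend, only the compared groups, the replicate block, 1 fit over 76 arrays, other mouse blocks, mouse 25 unaveraged, the sex pattern, mice 7 and 29 left out and each replicate left out. The next brightest feature and the margin of the sex rule (Xist more than 4 log2 units above the Y-linked genes) were chosen after seeing the data. Figures were drawn with matplotlib 3.10.9.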

Additional observations from a re-analysis of the deposited data

Results flagged for a closer look

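In 13 of 144 combinations of a gene and a group, 1 array stood apart from the others of its group by Dixon's criterion, where chance gives about 1 in 20. Cdkn1a stood apart at 11.64 in KO control septa at 3 months (the others lay between 9.68 and 10.23), at 6.25 in KO smoke vessels at 8 months (8.63 to 8.93) and at 8.95 in WT smoke septa at 8 months (9.42 to 9.54). Cdkn1c stood apart at 5.91 in WT smoke vessels at 8 months (4.52 to 4.75).

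Cdkn2b read 4.73 on 1 array of KO control septa at 8 months (6.18 to 6.53 on the others), and 5.30 on 1 array of KO control vessels at 8 months, where the other 4 lay between 1.03 and 1.88, below background. Cdkn2c at 10.51 (9.70 to 9.82) and Cdkn2d at 9.91 (9.03 to 9.18) stood apart on the same array, replicate 2 of WT control septa at 3 months. Cdkn2d also read 9.96 on 1 array of WT control vessels at 8 months (9.26 to 9.39).

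Mdm2 read 8.66 on 1 array of KO smoke septa at 3 months (9.55 to 9.78) and 9.11 on 1 array of WT control vessels at 8 months (8.61 to 8.73). Trp73 read 1.41 in WT control vessels at 3 months (4.23 to 4.75), below background, and 5.63 in WT control septa at 8 months (4.33 to 4.46).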

How the results depend on the processing

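Precision was limited by the number of arrays and by signals near background, and Cdkn2a could not be measured above it in most groups. Over time in septa the count was 2 in place of 1 with genes under the 25th percentile left out, without a trend and with the sex pattern as a covariate, and leaving out 1 replicate gave 1 to 2. It was 2 without replicate 3 of KO control or replicate 4 of WT control or WT smoke at 8 months, and without replicate 5 of KO smoke or replicate 1 of WT control or WT smoke at 3 months. Over time in WT smoke vessels it was 1 in place of 0 in 1 fit over 76 arrays (Trp73, 2.59). That fit shares 1 estimate of the spread over both tissues, and the part of this in the call was not tested. Between vessels and septa the count was 5 to 6 over 10 alternatives, and 5 with any 1 mouse left out. The replicate block changed no call of a named member and gave 0.58 for Cdkn1b over time in septa.

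The next brightest feature was counted only for the members named by the rule in each comparison. Among their differences, 12 changed sign, none of them called with either feature. In septa these were Trp73 with smoke in KO at 8 months (0.29), Cdkn2a over time in WT smoke (0.21, a gene near background), Cdkn1b over time in KO control (-0.26), Trp73 over time in KO smoke (0.072) and Cdkn2b between genotypes (0.24). In vessels they were Trp73 with smoke in WT at 8 months (-1.15), Cdkn1b over time in WT smoke (-0.068), Cdkn2b over time in KO control (0.93) and on average (0.049), and Trp73 for smoke by genotype (1.06). For vessels minus septa, Cdkn2b gave -0.27 for smoke and 0.23 for time. Leaving out single replicates kept Cdkn1b over time in septa between 0.53 and 0.64.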
